A study of Mus musculus with 8 samples.

Results

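The genes described here are 10 immediate early transcription factor genes, Fos, Fosb, Jun, Junb, Jund, Egr1, Egr2, Egr3, Nr4a1 and Atf3. They were chosen by symbol, and each had 1 row among the 55401 gene rows counted in every library. The libraries are bulk RNA-seq of mouse B cells in 4 groups of 2. Germinal center B cells, labelled GCB and sorted by FACS, came from the spleen of C57BL/6 mice that were wild type (WT) or carried the genotype named Jmjd1c B KO (KO). Activated B cells, labelled PanB, were pulled from the spleen of the same strain and genotypes with a biotinylated PanB reagent and SA beads and were then activated. Jmjd1c encodes a JmjC-domain protein of the KDM3 family of histone demethylases. On GRCm38 the genes lie at chr12:85473890-85477273 (Fos), chr7:19302696-19310051 (Fosb), chr4:95049034-95052222 (Jun), chr8:84974484-84978718 (Junb), chr8:70698949-70700616 (Jund), chr18:34859823-34864984 (Egr1), chr10:67535475-67542188 (Egr2), chr14:70077203-70082614 (Egr3), chr15:101254269-101274795 (Nr4a1) and chr1:191170296-191218039 (Atf3), and all are annotated as protein-coding. The Cre driver, the deleted exons, the stimulus, its duration, the time from spleen to lysis, the age of the mice and the number of mice per library were not given in the sources used here. The labels do not say that replicates came from separate mice, so the p-values speak only to the spread among the libraries at hand, which may be technical.

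Immediate early genes are transcribed within minutes of a stimulus, because the factors that switch them on are already present in the resting cell. Signals from the B cell receptor, CD40 or growth factors reach them through the MAPK cascade, the serum response factor SRF and CREB, and both the RNAs and the proteins usually have short lives. FOS and JUN proteins pair through leucine zippers to form the transcription factor AP-1, EGR proteins bind GC-rich sites through zinc fingers, and NR4A1 is an orphan nuclear receptor that follows B cell receptor signaling. Tissue dissociation, sorting and culture are also known to induce these genes, so their RNA in sorted or cultured cells can reflect handling as well as the state in the animal.

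The bases just before the start site are shown for 5 of the members that the results turn on, since factors that switch on such genes are known to bind near the start site. RefSeq start sites were available in the table used for 8 of the 10 members, all but Egr1 and Egr3. Each sequence runs 5′ to 3′ on the gene's strand, up to the base before the RefSeq start (GRCm38.p6), and capitals mark matches to 5 motifs searched on both strands. The motifs were the CRE half-site TGACG bound by CREB and ATF proteins, the AP-1 site TGANTCA, the EGR site GCGNGGGCG, the CArG box bound by SRF, and the TATA element TATAAA. The windows are Fos at chr12:85473640-85473889 (plus strand), Fosb at chr7:19310052-19310295 (minus strand), Jun at chr4:95052223-95052472 (minus strand), Junb at chr8:84978749-84978998 (minus strand) and Nr4a1 at chr15:101266596-101266845 (plus strand). The 6 bases of the Fosb window nearest the RefSeq start are left out, because an annotated exon reaches into them.
Fos: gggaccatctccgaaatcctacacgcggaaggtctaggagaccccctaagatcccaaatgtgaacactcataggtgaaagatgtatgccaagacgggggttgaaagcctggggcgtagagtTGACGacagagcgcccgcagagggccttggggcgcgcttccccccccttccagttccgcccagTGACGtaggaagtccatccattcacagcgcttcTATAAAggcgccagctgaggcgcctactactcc
Fosb: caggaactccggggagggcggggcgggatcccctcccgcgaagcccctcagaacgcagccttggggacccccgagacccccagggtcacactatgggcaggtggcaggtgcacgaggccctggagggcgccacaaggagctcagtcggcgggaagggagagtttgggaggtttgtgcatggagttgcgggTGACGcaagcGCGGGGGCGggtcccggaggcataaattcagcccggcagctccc
Jun: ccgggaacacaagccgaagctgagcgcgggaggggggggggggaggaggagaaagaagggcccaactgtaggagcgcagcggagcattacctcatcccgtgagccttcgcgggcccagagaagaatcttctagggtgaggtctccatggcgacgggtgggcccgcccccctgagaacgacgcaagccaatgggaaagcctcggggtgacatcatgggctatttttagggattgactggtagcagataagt
Junb: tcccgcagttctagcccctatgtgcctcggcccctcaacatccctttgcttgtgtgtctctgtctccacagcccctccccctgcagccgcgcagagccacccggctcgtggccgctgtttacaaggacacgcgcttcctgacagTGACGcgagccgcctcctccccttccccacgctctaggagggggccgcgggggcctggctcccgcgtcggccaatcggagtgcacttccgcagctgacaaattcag
Nr4a1: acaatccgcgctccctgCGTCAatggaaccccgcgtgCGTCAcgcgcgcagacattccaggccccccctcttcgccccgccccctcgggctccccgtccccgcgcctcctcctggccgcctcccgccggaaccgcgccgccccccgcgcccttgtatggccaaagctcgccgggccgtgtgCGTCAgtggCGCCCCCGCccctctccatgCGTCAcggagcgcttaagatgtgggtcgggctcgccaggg

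In the Fos window, TGACG stood at 129 and 66 bases before the start and TATAAA at 33. Fosb had 1 TGACG 60 bases before the start, followed by an EGR site at 50, and Junb had 1 TGACG at 106. In Nr4a1 the reverse complement of TGACG occurred 4 times, at 233, 213, 69 and 40 bases before the start, and an EGR site began at 60. None of the 5 motifs matched in the Jun window. No CArG box or AP-1 site matched in the 5 windows shown, while a CArG box matched in some windows of Egr2, which are not shown. Only the 250 bases before each start were searched, so sites farther upstream would be missed. Variant sites that differ from these motifs were not searched for. Among 32851 RefSeq windows treated in the same way, 17.765% held TGACG, 6.749% the AP-1 site, 4.697% the EGR site, 1.467% the CArG box and 12.368% TATAAA. These letter matches describe the sequence and are not evidence of binding.

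Each library had between 8777425 and 11414559 counts on genes. Levels are given as CPM, the read count scaled to a common library size with TMM over all 8 libraries, and, to compare genes with each other, as CPM per kilobase of annotated exon. KO was checked at Jmjd1c, which was lower in KO by 0.20 on the log2 scale in germinal center B cells (adjusted p = 1.67e-05) and by 0.94 in activated B cells (adjusted p = 1.81e-11), in edgeR's quasi-likelihood test. In germinal center B cells the RNA was at 163 and 158 CPM in KO and 194 and 178 CPM in WT, a ratio of 0.868, so the loss of Jmjd1c RNA was small there and checks the KO label only weakly. Whether the counted reads lie in the deleted part was not tested. The GCB libraries carried germinal center markers at summed levels of 1632 to 3114 CPM against 150 to 163 CPM in activated libraries. All 8 of these markers fell in KO germinal center B cells, where 25.1% of all genes tested were called lower. Markers of activated B cells summed to 547 to 604 CPM in activated libraries. In germinal center libraries they summed to 564 and 587 CPM in WT and 798 and 829 CPM in KO, so this sum did not mark out the activated libraries. Between the WT states 3 of these 6 markers were higher in germinal center B cells and 2 lower, against 40.3% and 41.8% over all genes. Mitochondrial genes took 9.20% and 9.52% of counts in KO germinal center libraries, 5.51% and 5.27% in WT, and 2.26% to 2.66% in activated libraries.

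Among the members, Fos and Junb held the highest levels per kilobase of exon in WT germinal center B cells, at 87.7 ± 1.36 for Fos and 77.2 ± 0.79 for Junb (SD, n = 2). Egr1 followed at 14.0 ± 1.002, Jun at 10.5 ± 0.287 and Fosb at 10.1 ± 0.273. Jun and Fosb differed by less than the sum of their SDs, and the Egr1 level stood above both in each library. Nr4a1 was at 6.05 ± 0.952, Egr3 at 4.39 ± 0.685 and Atf3 at 0.814 ± 0.463 per kilobase, while Egr2 and Jund had 9 or fewer counts in any WT germinal center library. Set against all genes of at least 1 CPM in that group, Fos was at percentile 95.8 and Junb at percentile 95.2 of the level per kilobase, so these RNAs were among the more abundant ones.

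In KO germinal center B cells Junb came first at 162 ± 6.06 per kilobase, then Fos at 126 ± 0.558, Jun at 49.9 ± 0.0609 and Fosb at 32.1 ± 0.655 (SD, n = 2). Egr1 was at 16.8 ± 0.31, Nr4a1 at 15.5 ± 0.0647, Egr3 at 9.75 ± 0.209 and Atf3 at 0.865 ± 0.0255. Both JUN genes stood higher in the order than in WT.

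In WT activated B cells the order was different. Junb was highest at 48.3 ± 5.19 per kilobase, followed by Nr4a1 at 37.3 ± 0.941, Egr3 at 31.3 ± 1.4002 and Egr1 at 15.9 ± 0.226 (SD, n = 2). Jun stood at 7.53 ± 1.24 and Atf3 at 3.86 ± 0.121. Fos and Fosb were near the bottom, at 0.668 ± 0.171 and 0.274 ± 0.0607 per kilobase. These 8 genes had the same order in KO activated B cells, with Junb at 49.4 ± 0.101, Nr4a1 at 39.5 ± 0.629, Egr3 at 34.5 ± 0.783, Egr1 at 19.3 ± 0.0642, Jun at 8.83 ± 0.47, Atf3 at 4.64 ± 0.146, Fos at 0.71 ± 0.329 and Fosb at 0.407 ± 0.073 per kilobase. Fos and Fosb differed by less than the sum of their SDs there. Egr2, at 0.355 ± 0.0738 in WT and 0.373 ± 0.0248 in KO, stood above Fosb in WT and below it in KO, by less than the sum of their SDs each time, and Jund was lowest. The plot of member levels by library shows the exchange between the states, with Fos and Fosb higher in sorted germinal center cells and Egr3 and Nr4a1 higher in activated cells.

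**Figure D1:**
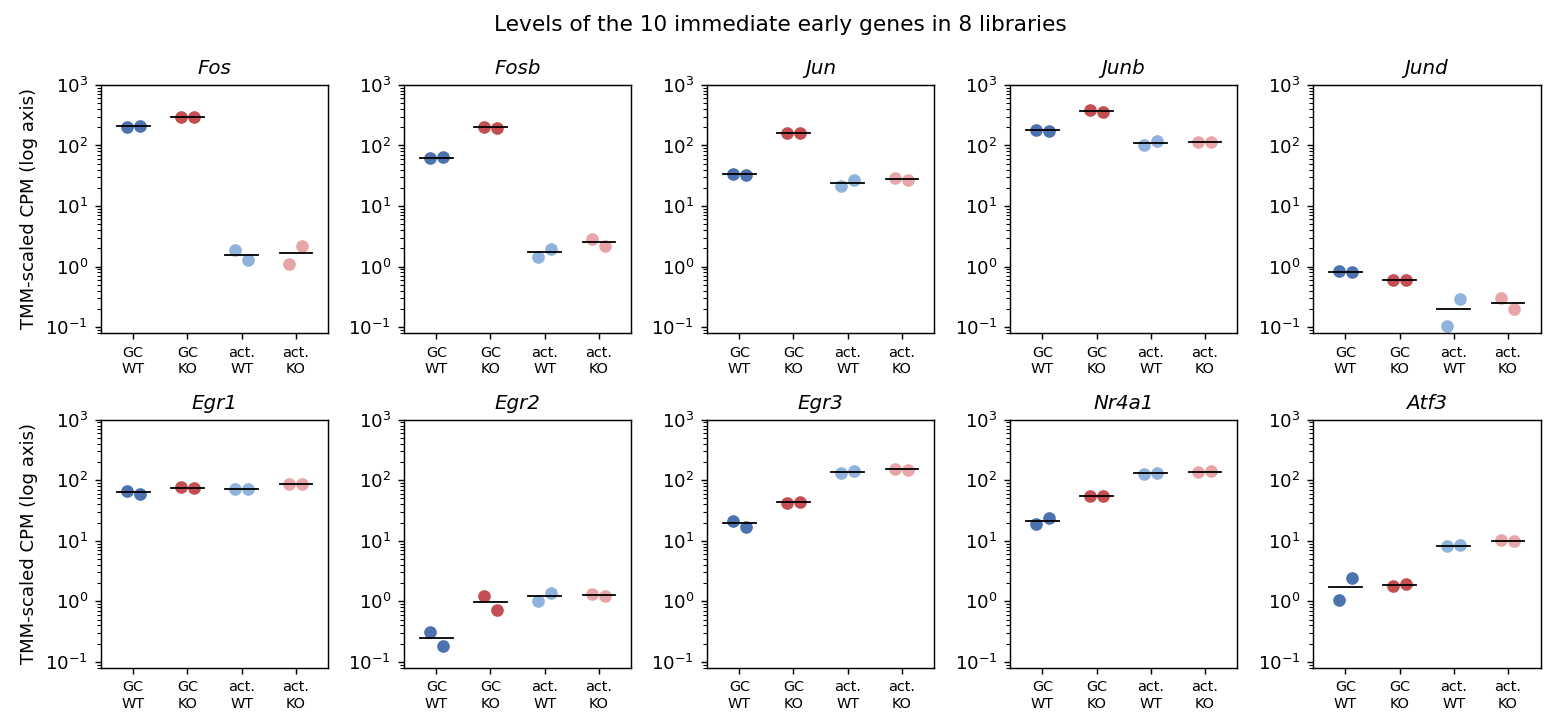
TMM-scaled CPM of each of the 10 genes (log axis) in each library, colored by group, with 2 libraries per group. Fos lies near 200 to 300 CPM in the 4 germinal center libraries and between 1.12 and 2.22 CPM in the 4 activated libraries, while Jund and Egr2 stay near or below 1 CPM.

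KO was first compared with WT in germinal center B cells. The AP-1, EGR and NR4A genes were mostly higher in KO: 7 of the 8 members that could be tested rose, 5 of them by more than 2-fold, and Atf3 did not pass. Over all 13350 genes tested, 25.1% were called higher, 25.1% lower and 7.28% higher by more than 2-fold. The median log2 fold change of the 8 tested members was 1.12, against -0.0044 over all genes. Jund and Egr2 had too few counts to enter the test, and members with low counts pass this filter more easily where 1 group is high. A gene was called at an adjusted p under 0.05 in edgeR's quasi-likelihood test with Benjamini-Hochberg adjustment over all genes. In bulk RNA, fewer cells of a type and less RNA per cell cannot be told apart.

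Of the JUN genes, Jun had the largest difference among the 8 tested members. Its level was 159 and 159 CPM in the KO libraries and 34.2 and 33.0 CPM in WT. Both KO libraries lay far above both WT libraries, and the log2 fold change was 2.25 (SE 0.06, adjusted p = 2.73e-261), or 4.75-fold. Of the other genes tested, 242 had a larger log2 fold change. Junb, whose protein pairs with FOS proteins but activates many AP-1 sites more weakly than JUN, was at 383 and 363 CPM in KO and 179 and 176 CPM in WT. The groups were separate, with a log2 fold change of 1.07 (SE 0.04, adjusted p = 5.21e-159).

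Fosb and Fos, the FOS members that cannot form AP-1 without a JUN partner, also rose, by unequal amounts. Fosb was at 203 and 197 CPM in KO and 61.6 and 64.0 CPM in WT, with no overlap and a log2 fold change of 1.68 (SE 0.05, adjusted p = 5.43e-212). Fos was already high in WT, at 204 and 209 CPM, and reached 297 and 296 CPM in KO. Its groups did not overlap either, but the log2 fold change of 0.53 (SE 0.04, adjusted p = 1.22e-38) was a 1.44-fold difference.

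Among the EGR genes, Egr3 differed more than Egr1. Egr3, which acts in lymphocytes downstream of antigen receptor signals, was at 42.3 and 43.6 CPM in KO and 21.5 and 17.2 CPM in WT. The 2 groups were separate, and the log2 fold change was 1.16 (SE 0.10, adjusted p = 2.63e-29). Egr1 was at 76.3 and 74.4 CPM in KO and 66.0 and 59.6 CPM in WT, with a log2 fold change of 0.27 (SE 0.07, adjusted p = 1.76e-04). Without the second WT library the Egr1 value was 0.19, at an adjusted p of 0.05, and it no longer passed. Egr2, an EGR gene known as a brake on lymphocyte activation, had 10 and 6 counts in KO and 3 and 2 in WT. The Egr2 ratio of KO to WT was 3.95, with a 95% interval from 1.38 to 13.8 that covers counting error only.

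Nr4a1, often called Nur77 and used as a reporter of B cell receptor signaling, was at 54.1 and 54.4 CPM in KO and 18.9 and 23.6 CPM in WT. KO and WT did not overlap, and the log2 fold change was 1.35 (SE 0.09, adjusted p = 4.37e-46). Atf3, a stress-induced bZIP factor, was the tested member that did not pass. It had 15 and 16 counts in KO and 10 and 27 in WT, so the KO libraries lay between the WT libraries (log2 fold change 0.06, SE 0.39, adjusted p = 0.923). Jund, the JUN gene that is usually made steadily rather than in bursts, had 5 and 5 counts in KO and 8 and 9 in WT. The Jund count is uncertain, because 52.578% of its annotated exon overlaps Gm11175 on the opposite strand and the strand setting of the counting was not given in the sources used here. The overlap was 7.275% for Jun (with Junos), 7.518% for Junb (with Prdx2) and none for the other members.

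**Figure D2:**
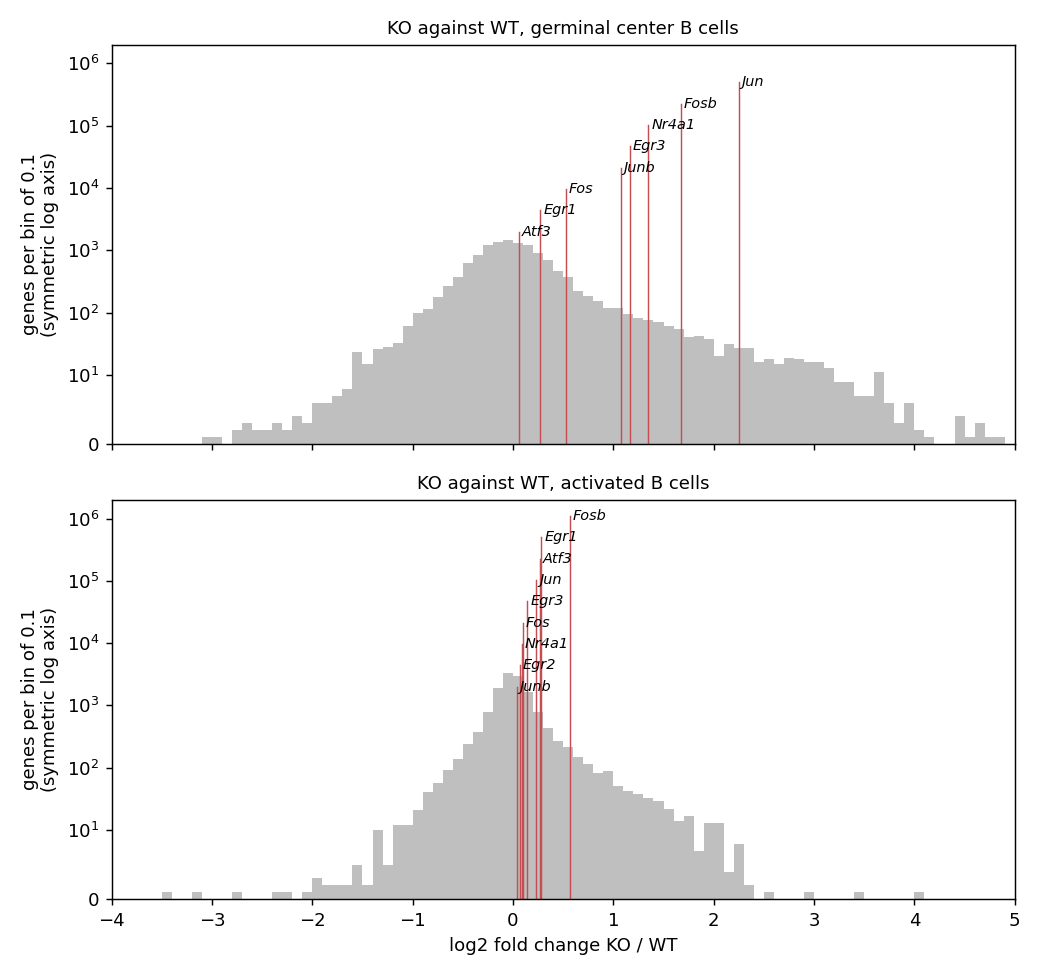
Histograms of log2 fold change, KO over WT, for all genes tested in germinal center B cells (top) and activated B cells (bottom), on a symmetric log axis of genes per bin; red lines mark the tested members, and line heights only separate the labels. Jun lies at 2.25 and Fosb at 1.68 in the top panel, while all members lie between 0.04 and 0.56 in the bottom panel; 6 genes (top) and 5 genes (bottom) fall beyond the axis from -4 to 5.

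The same comparison in activated B cells gave a different picture, with Egr1 the single member that passed. Of the 9 members tested, 1 was called higher, while 4.85% of the 14110 genes tested were called higher and 1.42% lower. At an unadjusted p under 0.05, 3 members were higher, and DESeq2 called 0. The median log2 fold change of the members was 0.141, against 0.000623 over all genes. Egr1 was at 86.9 and 86.5 CPM in KO and 70.7 and 72.1 CPM in WT, with a log2 fold change of 0.28 (SE 0.07, adjusted p = 0.00879). KO and WT libraries were separate for Egr1, but the call was lost in DESeq2 (adjusted p = 0.151), without a filter on low counts (0.0531) and without the first KO library (0.0528).

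Neither JUN gene passed between KO and WT activated cells. Jun was at 29.2 and 27.1 CPM in KO and 21.2 and 26.8 CPM in WT, the second WT library just under the KO libraries (log2 fold change 0.23, SE 0.11, adjusted p = 0.266). Without that WT library the Jun value was 0.41 and passed (adjusted p = 0.0412). Junb was at 114 CPM in both KO libraries and 103 and 120 CPM in WT, so KO lay within the range of WT (log2 fold change 0.04, SE 0.07, adjusted p = 0.852).

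The FOS genes were so low that only large changes could have been seen. Fos had 11 and 22 counts in KO and 18 and 13 in WT, with overlapping groups and a log2 fold change of 0.10 (SE 0.41, adjusted p = 0.939). Fosb had 28 and 22 counts in KO and 14 and 20 in WT. KO was higher in each Fosb library, at a log2 fold change of 0.56 whose standard error of 0.35 left it short of the threshold (adjusted p = 0.419).

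Egr3 was at 154 and 149 CPM in KO and 134 and 142 CPM in WT activated cells, a log2 fold change of 0.14 (SE 0.06, adjusted p = 0.179). Nr4a1 was at 137 and 140 CPM in KO and 129 and 133 CPM in WT (log2 fold change 0.09, SE 0.06, adjusted p = 0.474). Atf3 was at 10.2 and 9.77 CPM in KO and 8.14 and 8.51 CPM in WT (log2 fold change 0.27, SE 0.16, adjusted p = 0.42). For Egr3, Nr4a1 and Atf3 both KO libraries lay above both WT libraries by a small margin, and none of the 3 passed. Egr2, with 10 to 14 counts per library, had a log2 fold change of 0.07 (SE 0.43, adjusted p = 0.965), and Jund had 1 to 3 counts per library.

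**Figure D3:**
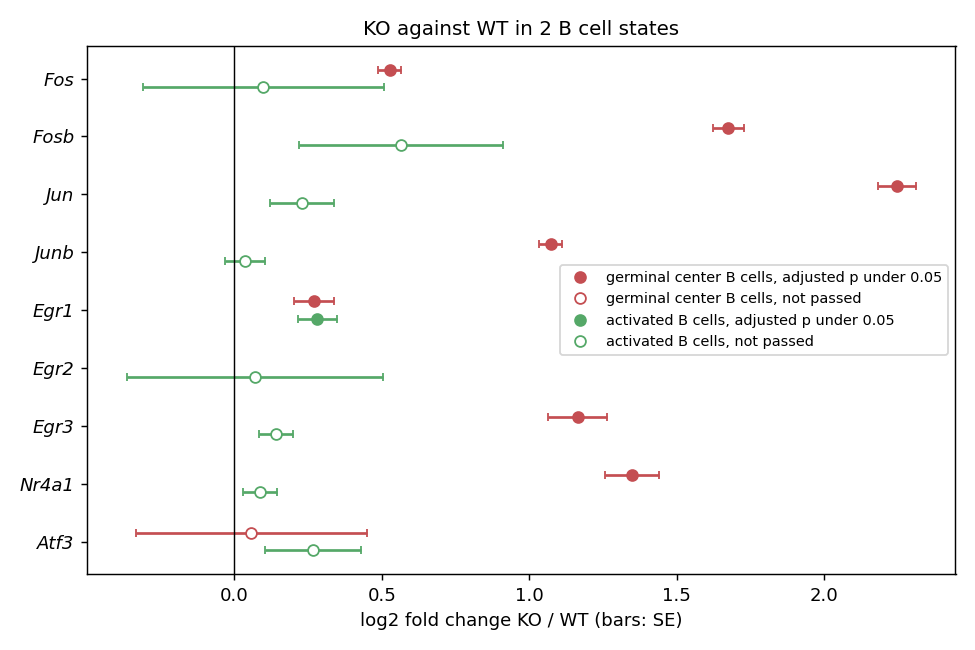
Log2 fold change of KO over WT for each tested member in germinal center B cells (red) and activated B cells (green), with bars of 1 SE and filled points where the adjusted p is under 0.05. Jun, Fosb, Nr4a1, Egr3 and Junb stand above 1 in germinal center B cells and below 0.6 in activated B cells, while the Egr1 points nearly coincide.

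Whether the KO difference depended on the cell state was tested in 1 fit over all 8 libraries, as the germinal center log2 fold change minus the activated one. The difference passed above 0 for 5 of 9 tested members, while 17.5% of the 14992 genes tested passed above 0 and 13.8% below, and the other 4 did not pass. Jun had a difference of 2.02 (SE 0.13, adjusted p = 1.87e-26), Nr4a1 of 1.26 (SE 0.11, adjusted p = 1.15e-18) and Junb of 1.04 (SE 0.08, adjusted p = 6.99e-22). Egr3 had a difference of 1.02 (SE 0.11, adjusted p = 2.89e-13). Fosb had a difference of 1.11 (SE 0.33, adjusted p = 0.00525), which became 0.89 and no longer passed (adjusted p = 0.163) without the second WT activated library.

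For Egr1 the difference was -0.01, with a 95% interval from -0.20 to 0.17 (adjusted p = 0.946), so a difference as large as that of Jun lies outside the interval. Fos gave 0.43 with a 95% interval from -0.27 to 1.12 (adjusted p = 0.409), wide because of the few Fos counts in activated cells. Atf3 gave -0.21 (SE 0.42, adjusted p = 0.756). Egr2 gave 1.86 (SE 0.88, adjusted p = 0.103), from 5 counts in WT germinal center libraries. For Fos, Egr2 and Atf3 the 2 effects could not be separated at this depth.

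The cell states themselves were compared next, germinal center against activated, in WT and in KO; these comparisons use the same libraries as the KO comparisons. Cell state, sorting, bead enrichment and culture went together in these groups and cannot be told apart. Most genes differed between the states, so calls were common. In WT, 4 of 9 tested members were higher in germinal center B cells and 5 lower, against 40.3% and 41.8% of the 14426 genes tested, and 2 were more than 2-fold higher and 4 more than 2-fold lower, against 19.8% and 24.3%. The median over members was -0.199, against -0.0338 over all genes. These shares of called members are near those over all genes. The 4 members called higher in germinal center B cells were Fos, Fosb, Jun and Junb, and the 5 called lower were Egr1, Egr2, Egr3, Nr4a1 and Atf3, while Jund was not tested. DESeq2 called 4 lower, without Egr1 (adjusted p = 0.091).

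Fos had the widest gap. WT germinal center libraries held 204 and 209 CPM and WT activated libraries 1.85 and 1.29 CPM, a log2 fold change of 7.02 (SE 0.11, adjusted p = 3.31e-125). This was 129.9-fold, and 39 of the tested genes had a larger value. Fosb was at 61.6 and 64.0 CPM against 1.44 and 1.98 CPM, a log2 fold change of 5.17 (SE 0.15, adjusted p = 5.21e-82). Both genes were separate between the states by more than any spread between libraries. The JUN genes differed much less, at 0.67 for Junb (SE 0.05, adjusted p = 3.96e-25) and 0.47 for Jun (SE 0.10, adjusted p = 7.3e-06).

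In the opposite direction, Egr3 was at 21.5 and 17.2 CPM in WT germinal center libraries and 134 and 142 CPM in WT activated libraries, a log2 fold change of -2.85 (SE 0.08, adjusted p = 7.21e-88). Nr4a1 was at 18.9 and 23.6 CPM against 129 and 133 CPM, a log2 fold change of -2.63 (SE 0.08, adjusted p = 7.47e-83). Atf3 was lower in germinal center B cells at -2.21 (SE 0.26, adjusted p = 1.86e-14). All 3 were separate between the states. Egr2 had 3 and 2 counts against 10 and 14, and its log2 fold change of -2.27 (adjusted p = 5.69e-04) no longer passed without the second WT library of either state (adjusted p = 0.0512 and 0.0503).

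Egr1 was nearly level across the states. It was at 66.0 and 59.6 CPM in WT germinal center libraries and 70.7 and 72.1 CPM in WT activated libraries, a log2 fold change of -0.20 (SE 0.07, adjusted p = 0.00536). The call was lost in DESeq2 (adjusted p = 0.091) and without the second WT germinal center library, where the value was -0.10 (adjusted p = 0.327). Plain library sizes in place of TMM moved the median of all genes to -0.155, and the Egr1 value to -0.32. Jund had 17 counts in the 2 WT germinal center libraries and 4 in the 2 activated ones, a ratio of 4.1 with a 95% counting interval from 1.34 to 16.7.

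In KO the FOS and JUN genes were again higher in germinal center B cells, and 4 members were higher and 4 lower of 9 tested, against 39.2% and 39.5% of the 14307 genes tested. Fos differed by 7.46 (SE 0.11) and Fosb by 6.30 (SE 0.10) on the log2 scale. Jun differed by 2.51 (SE 0.07) and Junb by 1.72 (SE 0.05), larger than in WT by the differences of KO effects given above. Egr3 was at -1.81 (SE 0.06), Nr4a1 at -1.35 (SE 0.06) and Atf3 at -2.41 (SE 0.25), all lower in germinal center B cells. Each of these 7 genes passed, with adjusted p between 1.36e-29 and 1.03e-09. Egr1 at -0.19 (adjusted p = 0.00623) passed, but not in DESeq2 (adjusted p = 0.0693) or without the second KO germinal center library (adjusted p = 0.099). Egr2 did not pass (log2 fold change -0.39, adjusted p = 0.454). With plain library sizes the median of all genes in this comparison was -0.193.

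**Figure D4:**
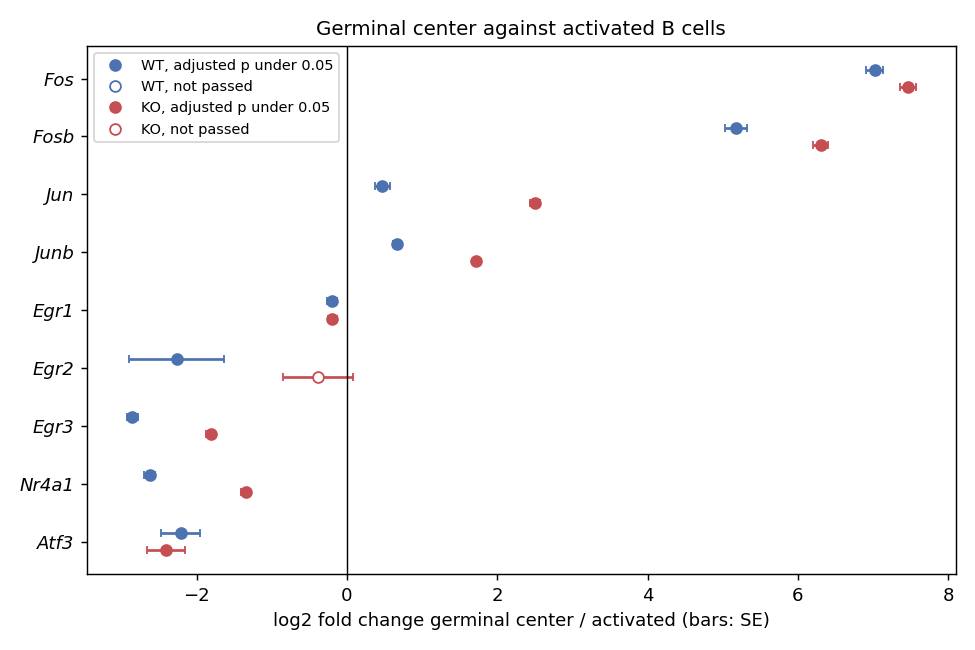
Log2 fold change of germinal center over activated B cells for each tested member in WT (blue) and KO (red), with bars of 1 SE and filled points where the adjusted p is under 0.05. Fos and Fosb lie above 5 in both genotypes, Egr3, Nr4a1 and Atf3 lie below -1 in both, and Egr1 lies near -0.20.

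Within each family, the share of each gene in the summed level per kilobase of exon shows which member made up most of the RNA. In germinal center B cells Fos made up 89.6% and 89.5% of FOS family RNA in WT and 79.3% and 79.9% in KO, and Fosb 10.2% and 10.4% in WT and 20.4% and 20.1% in KO. Fosl1 and Fosl2, the FOS-like genes, were under 1% there. Fosl2 was the largest part in activated B cells, at 36.7% to 52.3%, with Fosl1 at 23.5% to 32.3% and Fos at 12.4% to 24.9%. The FOS family had a different leading gene in the 2 states, although its sum in activated cells rested on few reads.

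Junb exceeded Jun in every library. The JUN shares also include the uncertain Jund count described above. Jun made up 12.1% and 11.8% of JUN RNA in WT germinal center B cells, 23.1% and 24.0% in KO, and 12.97% to 15.62% in activated B cells. In the EGR family Egr1 made up 74.0% and 77.1% in WT germinal center B cells and 63.09% and 62.01% in KO, and Egr3 most of the rest. Egr3 led in activated B cells, at 63.3% to 66.2%. Nr4a1 was at least 95.9% of NR4A RNA in germinal center B cells and 89.2% to 90.5% in activated B cells, where Nr4a3 took most of the remainder. These shares are given as descriptions, without a test.

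**Figure D5:**
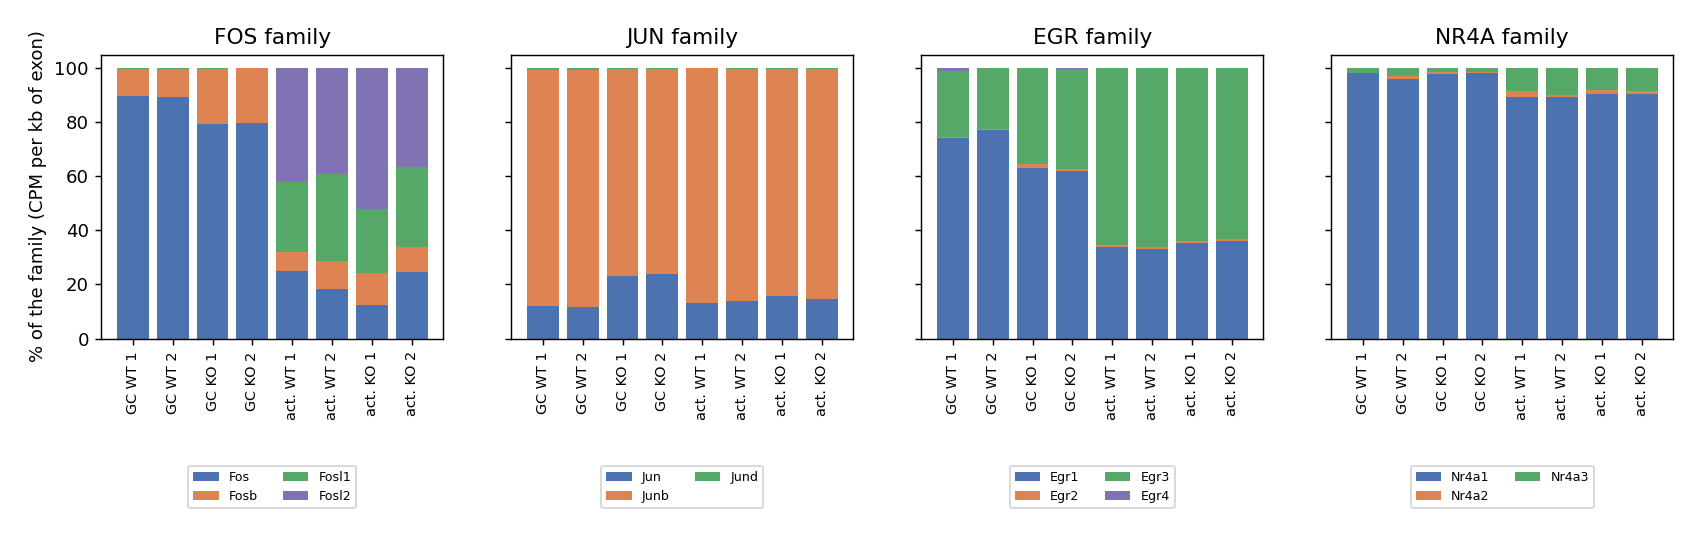
Stacked bars of the percent of summed CPM per kilobase of exon that each gene contributes to the FOS, JUN, EGR and NR4A families, 1 bar per library. Fos fills most of the FOS bar in germinal center libraries and Fosl2 is the largest part in activated libraries, while Junb exceeds Jun in all 8 libraries.

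Other genes of the pathway were read from lists chosen by function, with earlier results of these data known. Of 34 other immediate early genes, 30 could be tested in germinal center B cells, and 20 were higher in KO and 6 lower, with 8 more than 2-fold higher. Over all genes these shares were 25.1%, 25.1% and 7.28%. The median log2 fold change of the 30 was 0.44, against -0.0044 over all genes. Klf2, a quiescence and migration factor of lymphocytes, had a log2 fold change of 2.23 (SE 0.06), and the early activation antigen Cd69 had 1.501 (SE 0.07). Ier5 was at 1.25 (SE 0.04) and Ppp1r15a, which restores translation after stress, at 0.92 (SE 0.05). In activated B cells 1 of 31 was higher (Pim1, 0.28) and 1 lower (Plk2, -0.55) in edgeR, against 4.85% and 1.42% over all genes, and DESeq2 called 0. The difference of KO effects passed for 18 of the 31 above 0 and 3 below 0, against 17.5% and 13.8% over all genes, with 2.22 for Klf2, 1.51 for Sik1, 1.24 for Ier5 and -0.87 for Pim1.

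The other AP-1 and related bZIP genes had 3 of 12 tested members higher in KO germinal center B cells and 3 lower, near the shares of 25.1% and 25.1% over all genes. DESeq2 called 2 of them higher and 1 lower. Bach1 was at 0.66 and Mafk at 0.55, while Bach2, a repressor that competes for AP-1-like sites and maintains germinal center B cells, was at -0.84 and Jdp2 at -0.54. A single gene of 14 was called higher in KO activated B cells in edgeR, against 4.85% over all genes, and DESeq2 called 0. Between the WT states 4 of 14 were higher in germinal center B cells and 9 lower, against 40.3% and 41.8% over all genes, among them Bach1 at -2.51, Crem at -1.85 and Atf7 at -1.27.

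Of the EGR and NR4A relatives, Nab1, a corepressor of EGR proteins, rose by 0.19 in KO germinal center B cells in edgeR but was not called by DESeq2, and the other 2 tested did not pass. All 4 tested were lower in WT germinal center than in WT activated B cells, where 41.8% of all genes were lower, with Nr4a3 at -4.63, Nab2 at -0.87 and Nab1 at -0.29.

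The genes upstream, which encode MAPK cascade members, SRF and its partners and CREB proteins, had 6 of 31 higher in KO germinal center B cells and 10 lower, against 25.1% and 25.1% over all genes, with a median of -0.0472. Map3k1, a kinase that feeds the JNK pathway acting on JUN, was at 1.48 and Elk4, an SRF partner, at 0.37. Hras was at -0.51. Activated B cells had 2 of 31 higher and 2 lower in edgeR, against 4.85% and 1.42% over all genes. DESeq2 called 0 of them higher and 1 lower. Of the feedback inhibitors of MAPK signaling, 3 of 11 tested were higher in the KO germinal center libraries and 4 lower, again against 25.1% and 25.1%, with the ERK phosphatase Dusp6 at 0.70, Dusp7 at 0.64, Dusp16 at -0.55 and Dusp10 at -0.38. Between the WT states 8 of 12 feedback inhibitors were higher in germinal center B cells and 3 lower, against 40.3% and 41.8% over all genes, with Dusp10 at 2.75, Dusp1 at 2.68, Dusp2 at 1.57 and Dusp6 at 1.11.

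Heat shock genes, which tissue dissociation also induces, had a lower sum in KO germinal center B cells. Their summed level was 4845 and 4957 CPM in KO and 6281 and 6275 CPM in WT, and of 11 tested genes 7 fell and 1 rose, against 25.1% and 25.1% over all genes, with a median of -0.324. Hsph1 fell by 0.53, Dnaja1 by 0.51, Hsp90aa1 by 0.50 and Hspa8 by 0.37 on the log2 scale. The largest parts of the sum were Hsp90ab1 (mean 1978 CPM in KO, 2483 CPM in WT) and Hspa8 (1584 and 2047 CPM). Hspa1a (2.10 and 1.55 CPM) and Hspa1b (2.16 and 2.89 CPM) were low and did not pass, with log2 fold changes of 0.43 and -0.43. The members' sum, at 1219 and 1191 CPM in KO and 587 and 586 CPM in WT, went the other way from the heat shock sum. In activated B cells edgeR and DESeq2 each called 0 of 14 heat shock genes, and 2 were higher in KO at an unadjusted p under 0.05. Between the WT states 8 of 13 were higher in germinal center B cells and 4 lower, against 40.3% and 41.8% over all genes. The part of handling in the members' values was not tested.

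Markers of other cell types also differed with the groups. For the counts of called markers in this paragraph, the share called higher in KO over all genes was 25.1%. Markers few in WT, such as Cd4, Trac, Hba-a2, Lyz2 and Itgam, passed the low count filter through KO alone. That favors calls higher in KO in these counts. Monocyte and macrophage markers summed to 114 and 130 CPM in KO and 44.5 and 44.0 CPM in WT germinal center libraries, and 5 of 6 tested were higher in KO. Mpeg1 was the largest part of that sum, at a mean of 77.0 CPM in KO and 16.4 CPM in WT, while Cd68 was level (10.7 and 10.5 CPM). Erythroid markers summed to 58.2 and 71.2 CPM in KO and 7.33 and 9.38 CPM in WT, with 5 of 5 tested higher. T cell markers summed to 9.85 and 11.2 CPM in KO and 1.26 and 1.55 CPM in WT. Of the 8, 2 could be tested, and both were higher in edgeR while DESeq2 called 1. These were Cd4, with 28 and 26 counts in KO and 1 and 3 in WT, and Trac, with 12 and 18 against 3 and 8. Their direction was thus nearly fixed by the filter. Cd3e was at 0 counts in both WT libraries, as was the monocyte marker Fcgr1. Dendritic cell markers summed to 81.4 and 75.1 CPM in KO and 57.6 and 61.8 CPM in WT, with 2 of 3 tested higher. Neutrophil markers were near 0 in all 4 libraries, with Elane and Mpo at 0 counts. Plasma cell markers summed to 708 and 707 CPM in KO and 636 and 657 CPM in WT, with 3 of 4 higher. Jchain was the largest part of that sum and was level, at a mean of 493 CPM in KO and 497 CPM in WT. Prdm1 (17.8 and 5.50 CPM) was at 1.69 and Sdc1 (11.2 and 2.59 CPM) at 2.095 on the log2 scale. Markers of activated B cells summed to 798 and 829 CPM in KO and 564 and 587 CPM in WT, with 5 of 6 higher, among them Irf4 at 1.37; Cd69 and Myc of this list also belong to the other immediate early genes. The part of these cells or states in the members' values was not tested.

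In activated libraries monocyte, neutrophil and erythroid markers had higher sums than in germinal center libraries, and higher sums in KO than in WT. Over all genes 4.85% were called higher and 1.42% lower between KO and WT activated B cells. Monocyte and macrophage markers summed to 1482 and 1363 CPM in KO and 906 and 858 CPM in WT, with 5 of 8 higher. Of these 8, Fcgr1 (19 and 16 counts in KO, 0 and 3 in WT) passed the low count filter through KO alone. Neutrophil markers summed to 961 and 798 CPM in KO and 243 and 202 CPM in WT, with 6 of 6 higher. Erythroid markers summed to 1041 and 853 CPM in KO and 597 and 589 CPM in WT, with 5 of 6 higher. T cell markers summed to 23.0 to 24.3 CPM in KO and 15.7 to 16.1 CPM in WT, and 3 of 7 were higher at an unadjusted p under 0.05 while edgeR and DESeq2 called 0 after adjustment. The dendritic cell sum went the other way between the states, at 14.0 to 20.3 CPM in activated libraries. Flt3 was most of that gap, at a mean of 57.8 CPM in WT germinal center and 3.22 CPM in WT activated libraries. Between the WT states 1 of 4 tested dendritic cell markers was higher in germinal center B cells and 3 were lower, against 40.3% and 41.8% over all genes. Between KO and WT activated cells 0 of 4 passed after adjustment in edgeR or DESeq2, with 2 higher in KO at an unadjusted p under 0.05. Plasma cell markers summed to 376 and 364 CPM in KO and 284 and 268 CPM in WT, with 3 of 4 higher and Sdc1 lower. Of 6 activated B cell markers, 1 was higher (Cd86, 0.31). DESeq2 called 0 plasma cell markers lower and 0 activated B cell markers in either direction. The part of these cells or states in the members' values was not tested here either.

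The mitochondrial share also differed between KO and WT germinal center libraries. With mitochondrial and immunoglobulin genes left out of the library sizes, the log2 fold changes in germinal center B cells were 2.26 for Jun, 1.68 for Fosb, 1.36 for Nr4a1, 1.17 for Egr3, 1.08 for Junb, 0.53 for Fos and 0.28 for Egr1. All 7 passed in that fit.

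Genes with the pattern most like that of a member across all 8 libraries were named by the smallest root mean square difference of centered log2 CPM among 8697 genes. For Fos these were Nuggc (0.42), Ankle1 (0.48) and Mef2b (0.68), none close to it, and each was lower in KO than in WT germinal center B cells by mean CPM while Fos was higher. For Egr1 they were Wdfy2 (0.0532), Sirt2 (0.0552) and Pqlc2 (0.0611). For Nr4a1 they were Fam167a (0.0778), Man1a (0.0985) and Trim34a (0.101). Man1a, for instance, had mean germinal center levels of 302 CPM in KO and 110.4 CPM in WT, and mean activated levels of 707 CPM in KO and 679 CPM in WT.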

How the data were processed

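RNA was measured by sequencing in 8 libraries, and the authors deposited whole-number read counts per gene. The submitters' processing notes name mm10 as the build and the tools Trimmomatic and DESeq2. Aligner, read counter and strandedness were not given in the sources used here. The groups and replicate numbers came from the sample titles. Entries that name no gene were 56.7% to 59.5% of each library's total and stayed out of library sizes and tests. Symbols came with the deposited counts. Of the 55401 gene IDs 55141 matched GENCODE M21 (GRCm38), which gave positions, gene types and exon lengths. The deposited counts were tested with edgeR 4.0.16 in R 4.3.3 (TMM, filterByExpr, quasi-likelihood F test, Benjamini-Hochberg adjustment over all genes, adjusted p under 0.05), each comparison on its own 4 libraries and the difference of KO effects on all 8. Standard errors are the log2 fold change divided by the root of its F value, and 95% intervals are the value plus or minus 1.96 such errors. Alternatives were DESeq2 1.42.0, other scalings and filters, library sizes without mitochondrial and immunoglobulin genes, a replicate block, 1 fit over all libraries and leaving out each library. The procedure was tested on simulated counts with a small fixed spread and few changed genes. That run does not show how it behaves at the spread or the share of changed genes in these data. At 1 CPM a gene rests on about 10 counts in a library.

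The members and gene lists were chosen with earlier results of these data known. All 10 members are reported in every comparison, and from each list the text names a part of up to 4 genes with the lowest p that passed with a mean count of at least 50. Outside this rule, Hsp90ab1, Hspa1a, Hspa1b and cell type markers are named for their levels. The most similar genes were searched among named genes of at least 10 CPM on average, on log2 of CPM plus 0.5.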

Additional observations from a re-analysis of the deposited data

Results flagged for a closer look

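The difference between germinal center and activated B cells in the KO effect passed the interaction test in edgeR for 5 genes. On the log2 scale it was 2.02 for Jun, 1.26 for Nr4a1, 1.11 for Fosb, 1.04 for Junb and 1.02 for Egr3, with adjusted p from 1.87e-26 (Jun) to 0.00525 (Fosb). In each case KO was above WT in both libraries of germinal center B cells. In activated B cells both KO libraries were above both WT libraries for Jun, Fosb, Egr3 and Nr4a1, by less than the threshold of the test, and not for Junb.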

How the results depend on the processing

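The member calls in germinal center B cells kept their direction and their side of the threshold for Fos, Fosb, Jun, Junb, Egr3 and Nr4a1 under every alternative run. With 2 libraries per group, leaving out a library leaves 1 that is assumed to vary like the others. DESeq2 called fewer genes, with 2065 in place of 3352 lower (146 in place of 227 over 2-fold) in germinal center B cells, 291 in place of 684 higher and 58 in place of 201 lower (124 in place of 214 and 16 in place of 31 over 2-fold) in activated B cells, where it called 0 members in place of 1, and 1678 in place of 2621 above 0 for the difference of KO effects. With no filter on low counts, activated B cells gave 397 higher, 68 lower and 0 members. With at least 50 counts on average, calls over 2-fold were 503 higher in place of 972 and 93 lower in germinal center B cells, 104 and 8 in activated B cells, 1887 in place of 2863 and 2098 in place of 3502 between the WT states, 1614 in place of 2552 and 1583 in place of 2754 between the KO states, and 132 in place of 231 below 0 for the difference, since fewer genes were tested. The fit over all 8 libraries gave 408 lower in activated B cells. Leaving out 1 library gave 108 (without the first KO library) to 275 lower and 0 to 2 members higher in activated B cells, and 3 to 5 members lower between the WT states, where the lowest count was without the second germinal center library.

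Values that changed sign did not pass before or after. Atf3 in germinal center B cells was -0.39 to 0.82 with 1 library left out (lowest without the first WT library). In activated B cells Fos ran from -0.47 without the second KO library (-0.15 without the second WT library) to 0.50, Egr2 from -0.13 without the first WT library (-0.0016 without the first KO library) to 0.30, and Junb from -0.072 without the first WT library to 0.15. The difference of KO effects for Egr1 was 0.0055 with at least 50 counts on average, and ran from -0.063 to 0.079 with 1 library left out. It was above 0 without the second KO germinal center (0.0071), the first WT germinal center (0.079) and the first WT activated library (0.0021). That of Atf3 ran from -0.64 to 0.58, the highest without the second WT germinal center library. The cause of these changes was not tested.

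No pairing by replicate number was seen, as deviations from the group means correlated at -0.061 to 0.0316 between groups over 9510 genes. With 2 libraries per group this does not settle whether a number marks a shared animal or day, and the labels do not say. A replicate block moved calls in activated B cells to 435 lower in place of 201, and 953 in place of 684 higher. Low counts (Fos, Egr2 and Jund in activated B cells, Egr2, Jund and Atf3 in germinal center B cells) limited what could be seen for these genes.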
